A study of Mus musculus with 8 samples.

Results

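A set of 10 genes of Wnt signalling was followed through the first 8 days of factor-induced reprogramming: the ligand gene Wnt5a, the secreted inhibitor genes Sfrp1, Sfrp2, Sfrp4, Dkk2, Dkk3 and Wif1, the feedback target gene Axin2, and the transcription factor genes Lef1 and Tcf7. They are the 10 of 32108 genes in the deposited table whose Ensembl identifiers carry these symbols, and they were listed by symbol, with earlier results of these data known. The cells were fibroblasts (MEFs), by the labels grown from male mouse embryos of 13.5 dpc, homozygous for the 4F2A allele. In such cells doxycycline switches on a cassette that holds Oct4, Sox2, Klf4 and c-Myc in the Col1a1 locus. All cells received 2 μg/mL doxycycline from day 0, and 15% serum replacement and LIF at 1000 U/mL, and total RNA was taken on days 2, 4, 6 and 8 (groups D2, D4, D6 and D8, 2 libraries each). The titles mark every sample as a control, and the 8 libraries include none from day 0 and none without doxycycline, so that each difference is between days of induction. The labels speak of parallel replicates and name no separate cultures or embryos, so p-values measure only the spread between these libraries, which may be technical.

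Wnt ligands are lipid-modified secreted proteins that bind Frizzled receptors together with coreceptors. In the canonical branch this halts the destruction complex built on Axin and Apc, β-catenin accumulates, and it activates target genes together with the TCF/LEF factors. Secreted Frizzled-related proteins (Sfrp) and Wif1 bind the ligands outside the cell, and Dickkopf proteins such as Dkk2 act on the LRP coreceptors. Axin2, a negative feedback regulator, is a widely used readout of canonical signalling, and in fibroblasts Wnt5a is best known as a ligand of the β-catenin-independent branch.

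Values are in CPM, the reads of a gene per 1000000 counted reads of the library, and the libraries held 19.4 to 20.2 times 1000000 counted reads. Means are given ± SD over the 2 libraries of a day. A floor of 3 reads, the limit that a count of 0 allows, lay between 0.149 and 0.155 CPM and covers counting error only. A gene entered the limma fit of log2(CPM + 1) if 2 or more libraries reached 1 CPM, which 15358 genes did, and changes are later minus earlier day, in log2(CPM + 1), with their SE. Adjusted p-values are Benjamini-Hochberg values of limma over these 15358 genes, with calls made where they were under 0.05. The 8 fibroblast markers were all well above the floor, summing to 26166 to 26202 CPM in D2, 40176 to 43663 CPM in D4, 30427 to 33894 CPM in D6 and 28741 to 31838 CPM in D8. The sums were carried mainly by Col1a1, Col1a2 and Col3a1, and the 8 genes did not move together. Vim read 4832 and 4664 CPM in D2 and 2655 and 2516 CPM in D8, and Thy1 536 and 527, then 396 and 378 CPM. Col3a1 read 2063 and 2031 CPM in D2 and 7919 and 9330 CPM in D8, and Pdgfra 10.4 and 11.6, then 79 and 90.8 CPM. Xist lay at 702 to 1238 CPM and none of 4 Y-linked genes (Uty, Eif2s3y, Kdm5d and Ddx3y) exceeded 0.333 CPM in any library, which goes against the label of male embryos in all 8 libraries. The median change of all tested genes was 0.11 in D4 against D2, 0.069 in D6 against D4, -0.00096 in D8 against D6 and 0.17 in D8 against D2. Median-of-ratios scaling brought the last of these to -0.0074, and the share of called genes that were higher in D8 than in D2 to 50.7%, against 67.2% on the deposited scale and 45.1% for quantile normalized values. For D4 against D2 these shares were 52.5%, 65.3% and 47.1%, and for D6 against D4 46.8%, 66.7% and 47.7%.

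The inhibitor genes Sfrp1, Sfrp2, Sfrp4, Dkk2 and Dkk3 and the ligand gene Wnt5a rose in D4 against D2 and in D8 against D2, and Axin2 fell in both. Lef1 was lower in both, but it passed the filter only through its D2 libraries, and Sfrp2 and Sfrp4, under 1 CPM in D2, passed only through the later days, so these 3 had to differ from D2 and the counts with them are a description. In D4 against D2, 8 of the 9 tested members were called, 6 higher and 2 lower, where 62.5% of all tested genes were called (40.9% higher and 21.7% lower). In D8 against D2 the counts were again 6 higher and 2 lower, where 70.4% of all tested genes were called (47.3% higher and 23.1% lower). Of the 6 members at 1 CPM or more in every library of D2, D4 and D8, 5 were called in each of these comparisons, 4 higher and 1 lower. The steps in between called fewer members, 4 in D6 against D4 (3 higher and 1 lower, against 37.7% of all tested genes, 25.2% higher and 12.6% lower) and 4 in D8 against D6 (3 higher and 1 lower, against 9.11% of all tested genes, 4.72% higher and 4.39% lower). The first of these counts fell to 2 without D6 replicate 1, and also without the filter. The second fell to 1 without D6 replicate 2 or D8 replicate 1, to 2 without D8 replicate 2 or without the intensity trend, and to 0 without the filter, where 5 members had an unadjusted p under 0.05 in limma. By the F test of limma each of the 9 tested members varied over the days, as did 80.4% of all tested genes. Wif1 stayed below the filter and was not tested. In bulk RNA, fewer cells of a type and less RNA per cell cannot be told apart.

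**Figure D1:**
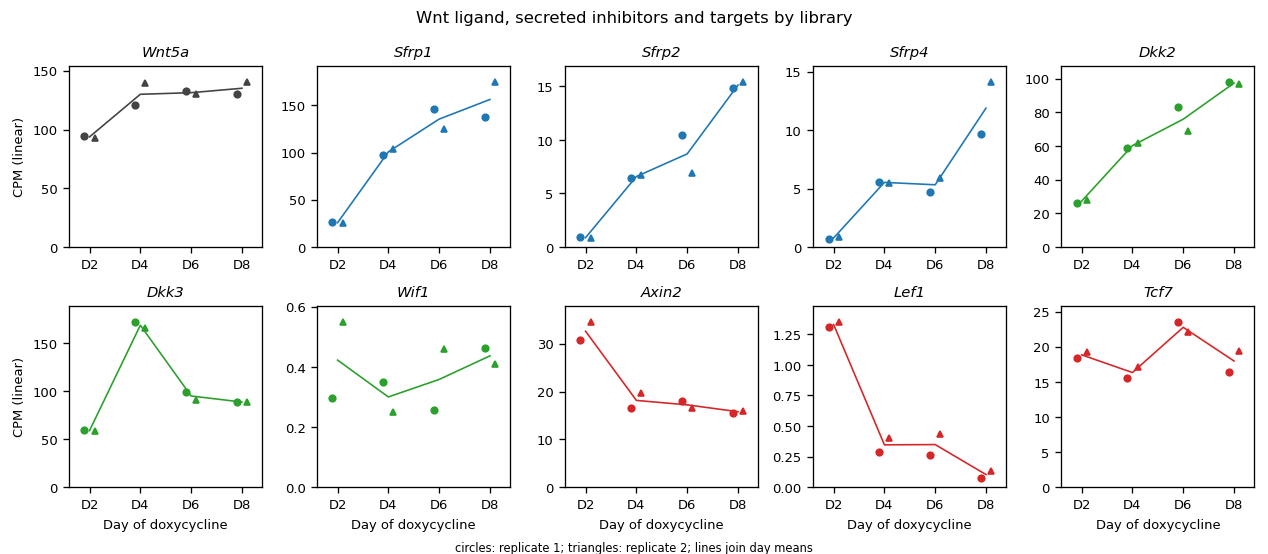
CPM of each of the 10 genes (linear axis from 0, scaled per gene) by day of doxycycline, with replicate 1 as circles, replicate 2 as triangles and lines through the day means. The 4 genes Sfrp1, Sfrp2, Sfrp4 and Dkk2 have their highest mean in D8, Dkk3 has its highest in D4, and Axin2 and Lef1 have their highest in D2.

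**Figure D2:**
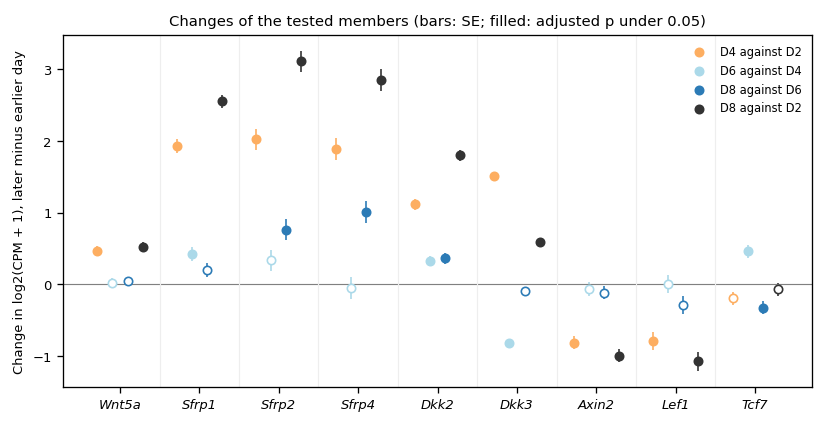
Change in log2(CPM + 1), later minus earlier day, for the 9 tested genes in the 4 comparisons, with the SE as bars and filled points for an adjusted p under 0.05. For the 3 Sfrp genes, Dkk2, Dkk3 and Wnt5a the D4 against D2 points are the highest of the 3 steps, and all are filled. Lef1 passed the filter only through D2, and Sfrp2 and Sfrp4 only through later days. The filter thus favoured a difference from D2, and their filled points against D2 are a description.

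Wnt5a (ENSMUSG00000021994, chr14:28504750-28527448, plus strand) rose in D4 against D2 and was still higher in D8 than in D2. Its libraries read 94.7 and 92.8 CPM in D2, 121 and 139 CPM in D4, 133 and 130.0 CPM in D6, and 130.2 and 140.2 CPM in D8. The D2 libraries were below all others, and the libraries of D4, D6 and D8 overlapped. In D4 against D2 the ratio of means was 1.39 (0.46 ± 0.065 on the log2 scale, adjusted p = 3.4e-05), and in D8 against D2 it was 1.44 (0.52 ± 0.065 on the log2 scale, adjusted p = 8.0e-06). Median-of-ratios scaling of the libraries reduced the D8 against D2 change to 0.33 with an adjusted p of 8.8e-04. The later steps did not pass the test, with 0.018 in D6 against D4 (adjusted p = 0.85) and 0.04 in D8 against D6 (adjusted p = 0.74).

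Of 19 Wnt genes in the table, 10 passed the filter and 9 did not. The 9 reached at most 0.398 CPM in any library, and Wnt3a and Wnt8a were listed at 0 in all of them. Per kilobase of annotated exon, Wnt9a stood highest in D2 with 24.9 CPM per kb and Wnt5a second with 12 CPM per kb. In D4, D6 and D8 the order was turned round, with Wnt5a at 16.6, 16.8 and 17.3 CPM per kb and Wnt9a at 13.4, 11.6 and 11.5 CPM per kb. Wnt5a made 25% of the per-kilobase sum of the 10 tested ligand genes in D2, 43.2% in D4, 40.7% in D6 and 40.7% in D8. In CPM, without division by length, Wnt5a lay above Wnt9a already in D2 (means of 93.8 and 83 CPM). The order in D2 and the shares therefore depend on the exon lengths used, 7.82 kb for Wnt5a and 3.33 kb for Wnt9a.

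The other 9 tested ligand genes split evenly by D8, 4 higher and 4 lower than in D2 (3 and 4 by quantile normalization), 88.9% beside 70.4% of all tested genes. Wnt9a read 82.3 and 83.6 CPM in D2, 42 and 46.9 CPM in D4, 37.8 and 39.5 CPM in D6, and 39.4 and 37.5 CPM in D8, so that its D2 libraries lay above all others (-1.09 ± 0.064 on the log2 scale, adjusted p = 5.1e-09 in D8 against D2). Wnt2, which acts through β-catenin in several tissues, read 3.22 and 3.44 CPM in D2, 7.99 and 7.02 CPM in D4, 13.3 and 11.5 CPM in D6, and 14.6 and 14.5 CPM in D8. It was the ligand gene with the largest rise in D8 against D2, with a ratio of means of 4.37 (1.85 ± 0.1 on the log2 scale, adjusted p = 3.5e-09). Wnt5b, the close relative of Wnt5a, averaged 3.86 ± 0.886 CPM in D8 and 0.894 ± 0.138 CPM in D2 (SD, n = 2; 1.35 ± 0.14 on the log2 scale, adjusted p = 1.9e-06). Wnt10b, a canonical ligand, averaged 5.63 ± 1.95 CPM in D8 and 12.2 ± 0.317 CPM in D2 (-1.03 ± 0.18 on the log2 scale, adjusted p = 1.7e-04), and Wnt7a averaged 3.06 ± 0.752 CPM in D8 and 8.87 ± 0.342 CPM in D2 (-1.29 ± 0.14 on the log2 scale, adjusted p = 1.8e-06). Wnt11 averaged 1.21 ± 0.25 CPM in D8 and 4.24 ± 0.778 CPM in D2 (-1.24 ± 0.15 on the log2 scale, adjusted p = 6.9e-06). Wnt4 and Wnt16 were higher in D8 than in D2 by 0.49 and 0.96 (adjusted p = 0.0024 and 1.6e-04), but quantile normalization ended the call of Wnt4 (0.054, adjusted p = 0.69) and lowered the change of Wnt16 to 0.53. Wnt5b and Wnt16, under 1 CPM in both D2 libraries, passed the filter only through later days and had to differ from D2. Their calls and the count of 4 higher are therefore a description. Wnt2b did not pass the test in D8 against D2, with 2.03 ± 0.189 CPM in D8 and 1.74 ± 0.146 CPM in D2.

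**Figure D3:**
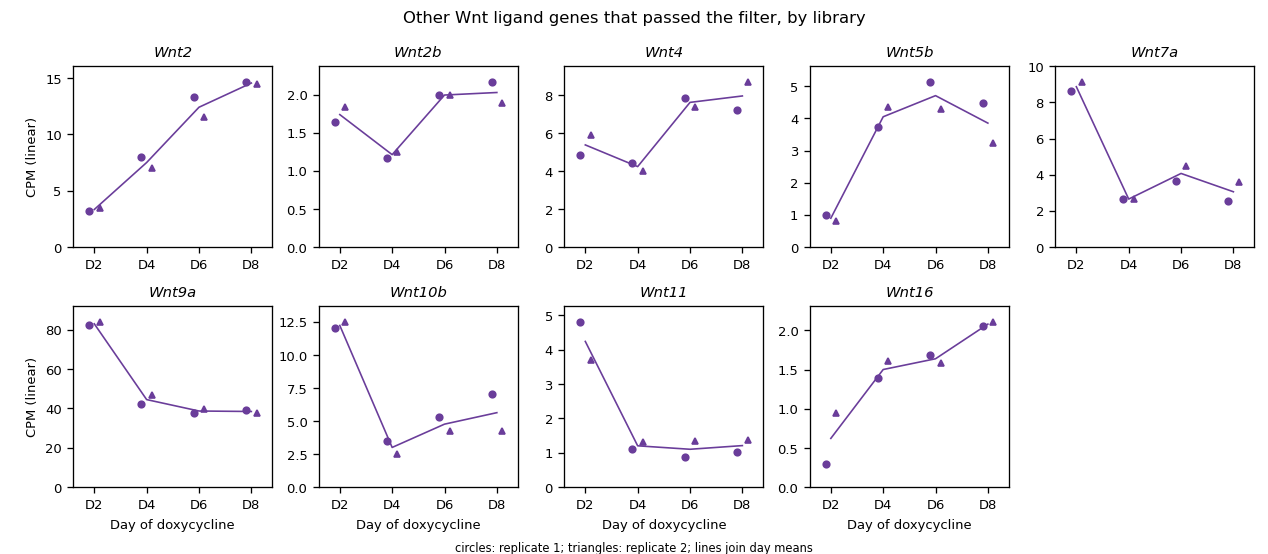
CPM of the 9 other Wnt ligand genes that passed the filter (linear axis from 0, scaled per gene) by day of doxycycline, with replicate 1 as circles, replicate 2 as triangles and lines through the day means. Wnt9a, Wnt7a, Wnt10b and Wnt11 have their highest means in D2, and Wnt2 has its highest in D8 at 14.6 CPM.

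The 3 secreted Frizzled-related protein genes all rose in D4 against D2 and stood higher still in D8. Sfrp1 (ENSMUSG00000031548, chr8:23411502-23449632, plus strand) read 26.2 and 25.1 CPM in D2, 97.5 and 104 CPM in D4, 146 and 125 CPM in D6, and 138 and 174 CPM in D8. Its D2 libraries lay far below all others, and the D6 and D8 libraries overlapped. The ratio of means was 3.93 in D4 against D2 (1.93 ± 0.095 on the log2 scale, adjusted p = 1.7e-09) and 6.09 in D8 against D2 (2.55 ± 0.095 on the log2 scale, adjusted p = 5.3e-11). The step of D6 against D4 was smaller (0.42 ± 0.095 on the log2 scale, adjusted p = 0.004), and it did not pass without D6 replicate 1 (adjusted p = 0.056) or without the filter on low levels (adjusted p = 0.069). In D8 against D6 the change was 0.2 (adjusted p = 0.21).

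Sfrp2 (ENSMUSG00000027996, chr3:83766321-83774316, plus strand) began near 1 CPM, with 0.942 and 0.797 CPM in D2, 6.47 and 6.69 CPM in D4, 10.5 and 6.91 CPM in D6, and 14.9 and 15.4 CPM in D8. No library of a later day overlapped with one of an earlier day. The D2 libraries held 19 and 16 reads of it. Sfrp2 passed the filter only through later days and had to differ from D2, so its fitted changes from D2 are a description. With a ratio of means of 17.4 in D8 against D2 (3.11 ± 0.15 on the log2 scale, adjusted p = 5.5e-10), it had the largest change of the 9 tested members in that comparison. In D4 against D2 the ratio of means was 7.57 (2.02 ± 0.15 on the log2 scale, adjusted p = 7.3e-08). In D8 against D6 it rose by 0.76 (adjusted p = 0.009). That call was lost without D6 replicate 2 (0.49, adjusted p = 0.063), D8 replicate 1 (adjusted p = 0.055) or D8 replicate 2 (adjusted p = 0.059), and without the filter (adjusted p = 0.099). The D6 libraries lay apart, and D6 against D4, at 0.33 with an adjusted p of 0.094, passed only when D6 replicate 2 was left out (0.6, adjusted p = 0.0048).

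Sfrp4 (ENSMUSG00000021319, chr13:19623104-19632994, plus strand) rose in 2 separate steps. It read 0.694 and 0.847 CPM in D2, 5.55 and 5.52 CPM in D4, 4.72 and 5.94 CPM in D6, and 9.69 and 14.1 CPM in D8. The D4 and D6 libraries overlapped, the D2 libraries lay below them and the D8 libraries above. The ratio of means was 7.18 in D4 against D2 (1.88 ± 0.15 on the log2 scale, adjusted p = 2.4e-07), 0.963 in D6 against D4 (-0.053 ± 0.15 on the log2 scale, adjusted p = 0.81) and 2.23 in D8 against D6 (1.01 ± 0.15 on the log2 scale, adjusted p = 0.0027). Without the filter on low levels the last of these had an adjusted p of 0.071. Over the whole span, D8 against D2, the change was 2.84 ± 0.15 (adjusted p = 2.2e-09). Sfrp4 also passed the filter only through days after D2, so its fitted changes from D2 are a description.

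Dkk2 and Dkk3, both of the Dickkopf family, rose in D4 against D2 and took different courses after it. Dkk2 (ENSMUSG00000028031, chr3:132085292-132180304, plus strand) read 26.3 and 28.2 CPM in D2, 59 and 61.6 CPM in D4, 83.2 and 68.8 CPM in D6, and 97.9 and 97 CPM in D8. Each day's libraries lay above those of the day before. It was called higher in all 4 comparisons, by 1.12 ± 0.077 on the log2 scale, adjusted p = 4.3e-08 in D4 against D2 and by 1.8 ± 0.077 on the log2 scale, adjusted p = 2.0e-10 in D8 against D2, a ratio of means of 3.58. The middle and last steps were 0.32 (adjusted p = 0.0053) and 0.36 (adjusted p = 0.015). The middle step did not pass without D6 replicate 1 (0.19, adjusted p = 0.073), and the last did not pass without D6 replicate 2 (0.23, adjusted p = 0.1), D8 replicate 1 (adjusted p = 0.086) or D8 replicate 2 (adjusted p = 0.066). Without the filter neither step passed (adjusted p = 0.056 and 0.11), nor did the last without an intensity trend (adjusted p = 0.075).

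Dkk3, a divergent Dickkopf member whose action on Wnt signalling is less settled (ENSMUSG00000030772, chr7:112116017-112159057, minus strand), peaked in D4. It read 59.6 and 58.1 CPM in D2, 171 and 166 CPM in D4, 98.6 and 91.2 CPM in D6, and 88.6 and 88.6 CPM in D8. The D4 libraries lay far above all others, the D2 libraries lay below all others, and the D8 libraries lay just below those of D6. The ratio of means was 2.86 in D4 against D2 (1.5 ± 0.052 on the log2 scale, adjusted p = 6.7e-11) and 0.563 in D6 against D4 (-0.82 ± 0.052 on the log2 scale, adjusted p = 2.4e-07). In D8 the level still exceeded that of D2, with 88.6 ± 0.0465 CPM in D8 and 58.8 ± 1.02 CPM in D2 (SD, n = 2; 0.58 ± 0.052 on the log2 scale, adjusted p = 3.6e-07). In D8 against D6 the change was -0.1 (adjusted p = 0.26). Dkk3 was the only one of the 9 tested members called lower in D6 against D4.

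Wif1, which encodes Wnt inhibitory factor 1 (ENSMUSG00000020218, chr10:121033960-121100650, plus strand), stayed between 0.251 and 0.548 CPM, or 5.0 to 11 reads per library. It read 0.298 and 0.548 CPM in D2, 0.35 and 0.251 CPM in D4, 0.256 and 0.46 CPM in D6, and 0.464 and 0.41 CPM in D8. The libraries of every pair of days compared overlapped, and a difference was not detectable at this depth. Per kilobase of exon, the order of the inhibitors in D2 was Dkk3 (17.5 CPM per kb), Dkk2 (7.36), Sfrp1 (5.87), Sfrp2 (0.404), Sfrp4 (0.184) and Wif1 (0.174 CPM per kb). In D8 it was Sfrp1 (35.7 CPM per kb), Dkk3 (26.4), Dkk2 (26.3), Sfrp2 (7.02), Sfrp4 (2.85) and Wif1 (0.18 CPM per kb). Dkk3 and Dkk2 were level in D8 within the spread of their libraries.

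RefSeq promoter windows (GRCm38.p6, 250 bases before to 50 after a gene's start) matched 6 of the 10 genes by symbol, Sfrp2, Dkk2, Wif1, Axin2, Lef1 and Tcf7, with 10 windows in all, and none was matched for Wnt5a, Sfrp1, Sfrp4 and Dkk3. They were searched on both strands for the core letters bound by TCF/LEF factors, CTTTGA and CTTTGT, which cannot both match at the same position of a strand, and 31.2% of all 32851 windows hold at least 1 of them (16.0% CTTTGA and 18.7% CTTTGT). Dkk2 and Sfrp2, both on the plus strand of chromosome 3, are shown since they had the closest courses of any 2 members (Pearson's r = 0.996 over the 8 libraries, which share their days). The Dkk2 window (chr3:132085042-132085341) holds CTTTGT 1 time, in capitals, and the Sfrp2 window (chr3:83766071-83766370) holds neither.
Dkk2: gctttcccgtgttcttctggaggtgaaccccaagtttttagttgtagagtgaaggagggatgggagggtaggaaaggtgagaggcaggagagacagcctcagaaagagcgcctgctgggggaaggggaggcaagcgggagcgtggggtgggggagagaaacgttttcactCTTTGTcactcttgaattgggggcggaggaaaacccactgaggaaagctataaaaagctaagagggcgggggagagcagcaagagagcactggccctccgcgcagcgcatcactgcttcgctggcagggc
Sfrp2: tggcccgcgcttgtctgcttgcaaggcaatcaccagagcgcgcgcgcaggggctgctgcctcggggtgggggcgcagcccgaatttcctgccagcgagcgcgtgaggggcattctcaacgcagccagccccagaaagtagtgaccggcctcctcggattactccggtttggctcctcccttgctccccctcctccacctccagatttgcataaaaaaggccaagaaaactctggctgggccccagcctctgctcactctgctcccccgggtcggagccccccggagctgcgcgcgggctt

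Axin2 (ENSMUSG00000000142, chr11:108920349-108950783, plus strand) fell in D4 against D2 and was also lower in D8 than in D2. It read 30.8 and 34.5 CPM in D2, 16.6 and 19.8 CPM in D4, 17.9 and 16.5 CPM in D6, and 15.6 and 16 CPM in D8. The D2 libraries lay above all others, those of D4 and D6 overlapped, and the D8 libraries lay below both. In D4 against D2 the ratio of means was 0.556 (-0.82 ± 0.093 on the log2 scale, adjusted p = 5.7e-06), and in D8 against D2 it was 0.484 (-1.0 ± 0.093, adjusted p = 5.1e-07). The steps of D6 against D4 and D8 against D6 did not pass, with -0.068 and -0.12 (adjusted p = 0.59 and 0.46).

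Lef1 (ENSMUSG00000027985, chr3:131110471-131224356, plus strand), which encodes a TCF/LEF factor and is itself a target of canonical signalling in many tissues, was the member with the fewest reads in D8 and lay near the detection limit there. It read 1.31 and 1.35 CPM in D2, 0.291 and 0.401 CPM in D4, 0.261 and 0.435 CPM in D6, and 0.0773 and 0.128 CPM in D8. Both D8 libraries were under the floor of 3 reads, and the D2 libraries lay above all others. It passed the filter only through the D2 libraries, the day in which it was high, so it had to differ. In summed reads, 4 in D8 stood against 54 in D2, a ratio per counted read of 0.0766 with an exact 95% interval of 0.0201 to 0.208 that covers counting error only. The 14 reads of D4 gave 0.261 of the D2 level (0.134 to 0.476). The fitted changes are a description, -0.79 in D4 against D2 and -1.08 in D8 against D2, and with a pseudocount of 0.1 they were -1.69 and -2.83. Without either D2 library it was below the filter and could not be tested.

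Tcf7 (ENSMUSG00000000782, chr11:52252371-52283014, minus strand), another TCF/LEF factor gene, moved in small steps. It read 18.4 and 19.3 CPM in D2, 15.6 and 17.1 CPM in D4, 23.5 and 22.1 CPM in D6, and 16.5 and 19.5 CPM in D8. The D6 libraries lay above all others, the D4 libraries below those of D2, and those of D2 and D8 overlapped. Tcf7 rose in D6 against D4 (0.46 ± 0.09 on the log2 scale, adjusted p = 0.0016), with a ratio of means of 1.39, and fell in D8 against D6 (-0.33 ± 0.09 on the log2 scale, adjusted p = 0.042). The fall was not called without D2 replicate 1 or 2 (adjusted p = 0.063 and 0.064), D6 replicate 1 or 2 (adjusted p = 0.2 and 0.1) or D8 replicate 1 (-0.22, adjusted p = 0.25), nor without the filter, without the trend or with only the 2 days fitted (adjusted p = 0.13, 0.087 and 0.057). D8 against D2 gave -0.07 (adjusted p = 0.51), but median-of-ratios scaling and quantile normalization gave -0.25 and -0.35, both called (adjusted p = 0.029 and 0.0056). In D4 against D2 the change of -0.2 was not called (adjusted p = 0.074), but it was called under both scalings (adjusted p = 0.013 and 0.0037).

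The promoter windows of Axin2 and Lef1 are shown because both genes were lower in D4 and in D8 than in D2. For Lef1 only the fourth window is printed, since it alone holds matches. The share of 31.2% given above is per window, and Lef1 has 4 windows. The Axin2 window (chr11:108920099-108920398) and 3 of the 4 Lef1 windows hold neither core, and the 2 Tcf7 windows and the Wif1 window hold neither. The fourth Lef1 window (chr3:131156044-131156343), at a start inside the gene, holds CTTTGA 2 times and CTTTGT 1 time, all on the minus strand and therefore read as TCAAAG and ACAAAG, in capitals. A match is a description of letters and not a measured site.
Axin2: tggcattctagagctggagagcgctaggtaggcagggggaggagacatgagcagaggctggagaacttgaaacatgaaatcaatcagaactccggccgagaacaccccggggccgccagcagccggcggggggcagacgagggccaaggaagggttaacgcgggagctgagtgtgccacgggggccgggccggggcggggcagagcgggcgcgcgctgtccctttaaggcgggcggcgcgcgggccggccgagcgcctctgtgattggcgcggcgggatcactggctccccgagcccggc
Lef1: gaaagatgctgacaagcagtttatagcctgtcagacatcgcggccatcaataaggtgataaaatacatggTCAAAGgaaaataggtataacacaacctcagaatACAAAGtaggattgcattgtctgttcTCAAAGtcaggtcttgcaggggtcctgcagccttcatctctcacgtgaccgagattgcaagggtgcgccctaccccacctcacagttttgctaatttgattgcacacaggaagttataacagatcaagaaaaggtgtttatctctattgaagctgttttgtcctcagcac

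The annotation places antisense genes over exons of Sfrp2 (Gm26771), Lef1 (Gm43352), Wnt5a (Gm2670) and Axin2 (Gm11670). The strandedness of the counting is not given in the sources used here, so reads of these partners cannot be told apart from reads of the 4 members. Under both scalings the 8 members called in D4 against D2 and in D8 against D2 kept their calls and directions, and Tcf7 was added to them as lower in both.

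Of 92 other Wnt pathway genes in 8 lists, 72 passed the filter. In D8 against D2, 31 were higher and 22 lower, a share of 73.6% beside 70.4% of all tested genes (47.3% higher and 23.1% lower). This split depended on the scaling, with 26 higher and 30 lower by median-of-ratios scaling and 26 higher and 29 lower by quantile normalization. In D4 against D2, where 62.5% of all tested genes were called, 38 were higher and 15 lower (30 and 20 under the first of these scalings, 31 and 16 under the second). In D6 against D4, where 37.7% of all tested genes were called, 13 were higher and 17 lower (12 and 27, and 9 and 27). In D8 against D6, where 9.11% of all tested genes were called, 5 were higher and 6 lower, and leaving out 1 library gave 5 to 13 calls in all (7 without D2 replicate 1 or D2 replicate 2, 6 without D6 replicate 1, D6 replicate 2 or D8 replicate 1, and 5 without D8 replicate 2). Wnt5b, Wnt16, Dkkl1, Sostdc1, Draxin and Tnfrsf19 passed the filter only with days after D2, so counts against D2 that include them are a description. The median change of the 72 genes was 0.11 in D8 against D2, beside 0.17 for all tested genes.

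**Figure D4:**
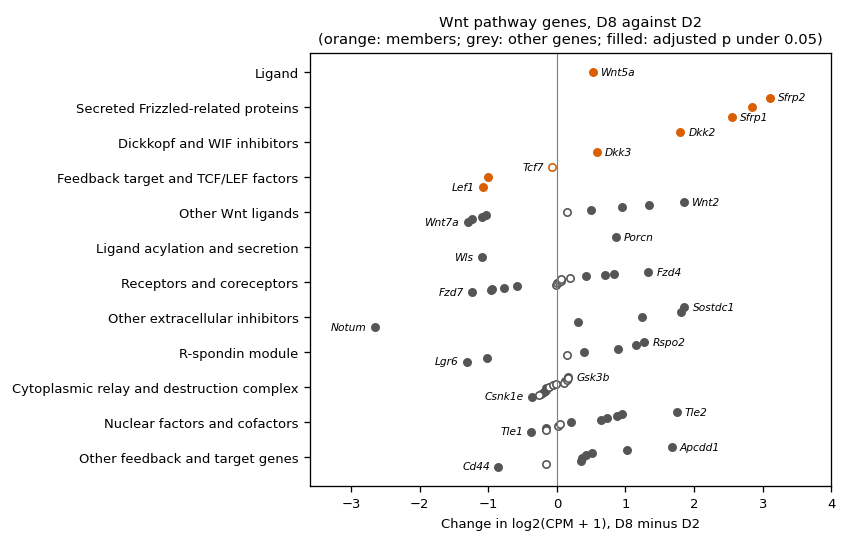
Change in log2(CPM + 1), D8 minus D2, of the members (orange) and of the other tested Wnt pathway genes (grey) by list, with filled points for an adjusted p under 0.05 and names at the lowest and highest gene of each list. Sfrp2 stands at the right end with 3.11 and Notum at the left end with -2.66.

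Notum, a secreted enzyme that removes the lipid of Wnt ligands and is itself induced by canonical signalling, fell in D8 against D2. It read 14.7 and 15.7 CPM in D2, 2.67 and 4.44 CPM in D4, 2.59 and 2.2 CPM in D6, and 1.65 and 1.49 CPM in D8. Its D2 libraries lay above all others (-2.66 ± 0.16 on the log2 scale, adjusted p = 5.7e-09 in D8 against D2). Of 12 other extracellular inhibitor genes 5 were tested, and in D8 against D2 4 were higher and 1 lower (3 and 1 by median-of-ratios scaling, 4 and 1 by quantile normalization), beside 70.4% called among all tested genes. Kremen1, a Dickkopf receptor and the most abundant of them, averaged 125 ± 8.38 CPM in D8 and 100.1 ± 2.08 CPM in D2 (0.31 ± 0.062 on the log2 scale, adjusted p = 5.4e-04, but adjusted p = 0.11 after median-of-ratios scaling). Sostdc1 and Draxin, under 1 CPM in D2, and Dkkl1, at 1.04 and 0.996 CPM in D2, passed the filter only with later days. The count of 4 higher is therefore a description. Dkk1, the best known Dickkopf gene, reached at most 0.0513 CPM in any library.

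Ligand processing genes moved apart. Wls, the carrier that brings Wnt ligands to the cell surface, fell in D8 against D2, with 294 ± 5.02 CPM in D8 and 629 ± 3.06 CPM in D2 (-1.09 ± 0.048 on the log2 scale, adjusted p = 2.4e-10). Porcn, the acyltransferase that attaches the lipid, rose, with 16.5 ± 1.18 CPM in D8 and 8.7 ± 0.517 CPM in D2 (0.85 ± 0.1 on the log2 scale, adjusted p = 5.9e-06, and 0.5 after quantile normalization).

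Of 16 receptor and coreceptor genes 15 were tested, and in D8 against D2 4 were higher and 5 lower, 60% beside 70.4% of all tested genes. By median-of-ratios scaling 4 were higher and 6 lower, and by quantile normalization 4 were higher and 9 lower. Fzd4, a Frizzled receptor, averaged 32.9 ± 2.72 CPM in D8 and 12.5 ± 1.86 CPM in D2 (1.33 ± 0.11 on the log2 scale, adjusted p = 1.4e-07). Fzd7, another Frizzled receptor, fell, with 54.7 ± 0.713 CPM in D8 and 131 ± 4.81 CPM in D2 (-1.24 ± 0.056 on the log2 scale, adjusted p = 3.5e-10). Ryk, an atypical Wnt receptor, and Ptk7, a coreceptor of planar polarity signalling, fell by 0.96 and 0.94 (adjusted p = 6.7e-10 and 1.3e-09).

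The R-spondin module, in which secreted R-spondins bind Lgr receptors and protect Frizzled receptors from the ligases Znrf3 and Rnf43, had 4 genes higher and 2 lower of 7 tested in D8 against D2 on the deposited scale and under both scalings, 85.7% beside 70.4% of all tested genes. Lgr5 read 13.9 and 12 CPM in D2, 14.2 and 15.9 CPM in D4, 18.1 and 13.7 CPM in D6, and 29.8 and 30.0 CPM in D8. Its D8 libraries lay above all others, with 0.88 ± 0.12 on the log2 scale, adjusted p = 9.1e-04 in D8 against D6 and 1.16 ± 0.12 on the log2 scale, adjusted p = 1.0e-06 in D8 against D2. Lgr6 went the other way, with 9.89 ± 0.582 CPM in D8 and 26 ± 0.996 CPM in D2 (-1.31 ± 0.096 on the log2 scale, adjusted p = 4.8e-08). The ligand gene Rspo2 averaged 20.9 ± 1.02 CPM in D8 and 8.05 ± 0.445 CPM in D2 (1.27 ± 0.084 on the log2 scale, adjusted p = 1.6e-08), and Rspo3 25.4 ± 1.16 CPM in D8 and 13.2 ± 1.11 CPM in D2 (0.89 ± 0.087 on the log2 scale, adjusted p = 7.6e-07). Lgr4, the most abundant gene of the module, averaged 88.6 ± 3.46 CPM in D8 and 67.1 ± 0.968 CPM in D2 (0.4 ± 0.052 on the log2 scale, adjusted p = 1.5e-05, and 0.21 after median-of-ratios scaling).

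Of 15 cytoplasmic relay and destruction complex genes, all tested, 2 were higher and 6 lower in D8 against D2, 53.3% beside 70.4% of all tested genes. By median-of-ratios scaling 0 were higher and 10 lower, and by quantile normalization 1 was higher and 6 lower, and the directions of Gsk3b, Csnk1a1 and Tnks2 turned under 1 of the 2 scalings each. The calls of these 3 were also lost without single libraries, that of Gsk3b without D2 replicate 1 or D8 replicate 2 (adjusted p = 0.17 and 0.066), that of Csnk1a1 without D2 replicate 2 (adjusted p = 0.081), and that of Tnks2 without D2 replicate 1 or 2, D6 replicate 1 or 2, or D8 replicate 2 (adjusted p = 0.052 to 0.23). Csnk1e, a casein kinase gene, fell (-0.36 ± 0.05 on the log2 scale, adjusted p = 2.1e-05, and -0.55 after median-of-ratios scaling). Ctnnb1, which encodes β-catenin, averaged 549 ± 12.2 CPM in D8 and 623 ± 4.32 CPM in D2 (-0.18 ± 0.046 on the log2 scale, adjusted p = 0.0031, but -0.038 with adjusted p = 0.45 after quantile normalization, and -0.37 by median-of-ratios scaling).

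Among 11 nuclear factor and cofactor genes, all tested, 6 were higher and 2 lower in D8 against D2, 72.7% beside 70.4% of all tested genes. Both scalings gave 5 higher and 4 lower. Tle2, a Groucho-family corepressor gene, read 8.18 and 8.09 CPM in D2, 29.7 and 29.9 CPM in D4, 35.8 and 30.3 CPM in D6, and 30.2 and 29 CPM in D8. Its D2 libraries lay below all others (1.75 ± 0.082 on the log2 scale, adjusted p = 5.6e-10 in D8 against D2). Tcf7l1, a TCF/LEF factor known as a repressor in mouse embryonic stem cells, averaged 88.9 ± 4.9 CPM in D8 and 45.4 ± 1.92 CPM in D2 (0.95 ± 0.077 on the log2 scale, adjusted p = 1.3e-07). Bcl9l, a β-catenin cofactor gene and the most abundant by CPM, averaged 144 ± 1.12 CPM in D8 and 139.7 ± 4.43 CPM in D2 (adjusted p = 0.5).

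Of 9 feedback and target genes other than Axin2, 8 were tested, and 6 were higher and 1 lower in D8 against D2, 87.5% beside 70.4% of all tested genes. By median-of-ratios scaling 5 were higher and 2 lower, and by quantile normalization 4 were higher and 2 lower. Lef1 and Notum, described above as target genes, stand in other lists and were lower in D8 than in D2, as was Axin2. The split is therefore that of this list and not of all target genes. Apcdd1, a membrane inhibitor of Wnt signalling, read 45.8 and 48.2 CPM in D2, 123 and 124 CPM in D4, 165 and 159 CPM in D6, and 145 and 159 CPM in D8. Its D2 libraries lay below all others (1.68 ± 0.055 on the log2 scale, adjusted p = 1.7e-11 in D8 against D2). Ccnd1, cyclin D1, averaged 1425 ± 51.9 CPM in D8 and 1060.4 ± 8.27 CPM in D2 (0.43 ± 0.058 on the log2 scale, adjusted p = 2.1e-05, 0.24 by median-of-ratios scaling and 0.79 by quantile normalization), and Cd44, a hyaluronan receptor, fell, with 493 ± 25.1 CPM in D8 and 892 ± 3.66 CPM in D2 (-0.86 ± 0.054 on the log2 scale, adjusted p = 1.1e-08). Tnfrsf19, at 0.893 and 1.05 CPM in D2, passed the filter only with later days, so the count of 6 higher is a description. Sp5, a direct target of canonical signalling, was not tested and reached at most 0.249 CPM.

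Summed levels of markers of other cell types also differed between days, and their part in the results was not tested. The 6 epithelial markers summed to 6.9 to 8.94 CPM in D2, 40.8 to 48.5 CPM in D4, 108 to 132 CPM in D6 and 158 to 169 CPM in D8, carried by Cdh1 and Krt8, while Cldn6 was at or below the floor in every library. The 5 endothelial markers summed to 69 to 71.4 CPM in D2, 104 CPM in D4, 147 to 159.8 CPM in D6 and 165 to 166 CPM in D8, of which Tek alone made 64.3 to 163 CPM, while Cdh5 reached at most 0.448 CPM. The 5 macrophage and haematopoietic markers summed to 56.1 to 80.0 CPM in D2, 74.1 to 77.7 CPM in D4, 73.2 to 80.5 CPM in D6 and 56 to 64.2 CPM in D8. The 4 cartilage markers summed to 21.3 to 21.4 CPM in D2, 17.4 to 19.8 CPM in D4, 31.9 to 34.8 CPM in D6 and 38.8 to 46.7 CPM in D8, with Col2a1 at 6.2 to 33.6 CPM. The 5 neural and Schwann markers summed to 169 CPM in D2, 57.9 to 63.8 CPM in D4, 61.8 to 65.1 CPM in D6 and 46.4 to 46.5 CPM in D8, nearly all of it Tubb3, and the 5 skeletal muscle markers to 7.91 to 8.27 CPM in D2, 2.35 to 2.36 CPM in D4, 3.05 to 3.2 CPM in D6 and 2.65 to 3.0 CPM in D8, with Myod1 listed at 0 in all libraries.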

How the data were processed

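Total RNA of 4F2A MEFs, isolated with TRIzol, was sequenced on a BGISEQ-500 instrument per the labels' protocols. The submitters' processing notes name Trimmomatic 0.39, featureCounts and the build mm10. Aligner, annotation release and strandedness: not given in the sources used here. All deposited values are CPM, since each of the 8 columns sums to 1000000 and every value is a multiple of 1 hundredth of a read, a step that does not depend on gene length. Whole reads made up 52.8% to 54.3% of a library's nonzero values (tolerance 0.0002 reads), so no count test was run. 0 columns belonged to no sample. Symbols and coordinates came from GENCODE M21 (32063 identifiers matched, 45 did not), and levels per kilobase use the union of annotated exons.

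For genes that reached 1 CPM in 2 or more libraries, log2(CPM + 1) was fitted with limma 3.58.1 in R 4.3.3 (lmFit, contrasts.fit, eBayes with an intensity trend), with 1 coefficient per day and 4 residual degrees of freedom. P-values are two-sided and adjusted by Benjamini-Hochberg over 15358 genes. The code was tested on simulated data. The 2 libraries of a day differed beyond counting error: their mean chi-square over genes was 1.38 in D2, 5.61 in D4, 3.76 in D6 and 4.23 in D8. Alternatives were a pseudocount of 0.1, no filter, a filter of 5 CPM, median-of-ratios scaling, quantile normalization, no trend, a replicate block, a fit of only the 2 days compared, and leaving out each library. The lone library of that day is then assumed to vary like the other days.

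The members and gene lists were chosen with earlier results of these data known. All members are named. Other pathway genes are named when they are ligand genes that passed the filter, the most abundant of a list by CPM, or among its 4 largest called changes in D8 against D2 with at least 5 CPM in the higher day. Dkk1 and Sp5, and the list genes named only for a change of direction (Gsk3b, Csnk1a1 and Tnks2), were added after their values were seen. So were Dkkl1, Sostdc1, Draxin and Tnfrsf19, named only for how they passed the filter. Not all genes that the rule allows are named. Python 3.11.15 with numpy 2.4.6, pandas 2.3.3, scipy 1.17.1 and matplotlib 3.10.9 was used for tables and figures.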

Additional observations from a re-analysis of the deposited data

How the results depend on the processing

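Of 564 recomputed changes of the 9 tested members (4 comparisons under each alternative), 525 kept their direction and their side of the threshold, 22 kept the direction but lost the call, and 5 gained a call. In 12 the sign turned, none of them called before or after. Wnt5a in D6 against D4 was -0.063 by median-of-ratios scaling, -0.020 by quantile normalization and -0.085 to 0.12 when 1 library was left out, and in D8 against D6 it was -0.014 to 0.093. Lef1 in D6 against D4 was -0.010 with a pseudocount of 0.1, -0.020 and -0.22 under the 2 scalings and -0.093 to 0.093 without 1 library. Leaving out 1 library gave -0.19 to 0.087 for Sfrp4 and -0.19 to 0.053 for Axin2 in D6 against D4, and -0.18 to 0.044 for Tcf7 in D8 against D2. Counts of called members in D4 against D2 (8), in D8 against D2 (8) and in the F test (9) stayed within 1.5 times of their value under every alternative run, with 7 to 8, 7 to 8 and 8 to 9 when 1 library was left out. Without the filter on low levels, 2 members were called in D6 against D4, and limma called 0 of 10 in D8 against D6 although 5 had an unadjusted p under 0.05. In that step the other pathway genes then counted 6 calls and all genes 344, with 25416 genes in the adjustment. Without the intensity trend the last step called 2 members, 7 other pathway genes and 533 genes in all. Leaving out 1 library gave 2 to 5 members in D6 against D4 (2 without D6 replicate 1), 1 to 4 in D8 against D6 (1 without D6 replicate 2 or D8 replicate 1, 2 without D8 replicate 2), 5 to 13 other pathway genes and 398 to 1743 genes in D8 against D6. The cause of these losses was not tested. Whether replicate numbers mark pairs is not settled. Deviations of replicate 1 from the day mean correlated between days with r = -0.102 to 0.207 over 15358 genes, which cannot exclude pairs. With a replicate block the called members numbered 8 in D4 against D2, 8 in D8 against D2, and 4 in each of the 2 later steps. Wif1 and Lef1 are limited by depth, with 5 to 11 and 1.5 to 27.1 reads per library.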

Other observations

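The 2 tested genes whose course was most like that of each member were taken by Pearson's r of log2(CPM + 1) over the 8 libraries. These values are a description with no test, since the libraries share their days and 80.4% of all tested genes differed between days. For Wnt5a they were Atf7 (r = 0.995) and Lrp6 (r = 0.9931), and Lrp6 encodes a Wnt coreceptor. For Sfrp1 they were Osbpl1a (r = 0.998) and Rsbn1l (r = 0.9978), and for Sfrp2 Vps54 (r = 0.998) and Ccn3 (r = 0.9974). For Sfrp4 they were Uevld (r = 0.991) and Ddx17 (r = 0.9906). Dkk2 ran closest to Chl1 (r = 0.999) and Egfl6 (r = 0.9984), and Dkk3, with its peak in D4, to Cmtm3 (r = 0.9996) and Spry2 (r = 0.9972). Axin2 ran closest to Zfp703 (r = 0.993) and Pprc1 (r = 0.9916), and Lef1 to Nploc4 (r = 0.993) and Nomo1 (r = 0.9921). Tcf7 had the least common course, with Opa3 (r = 0.967) and Cep135 (r = 0.9496) and 1 gene above an r of 0.95, where Sfrp1 had 1863 and Dkk3 129.

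Lrp6 rose in D8 against D2. It read 91.6 and 93.8 CPM in D2, 139 and 159 CPM in D4, 150.3 and 148 CPM in D6, and 143 and 161 CPM in D8. Its D2 libraries lay below all others (0.71 ± 0.067 on the log2 scale, adjusted p = 6.1e-07 in D8 against D2). Dact1, which encodes a regulator of Dishevelled, averaged 14.8 ± 0.165 CPM in D8 and 6.78 ± 0.0154 CPM in D2 (1.02 ± 0.086 on the log2 scale, adjusted p = 1.8e-07, and 0.64 after quantile normalization). Pygo1, a β-catenin cofactor gene, averaged 20.1 ± 0.35 CPM in D8 and 10.5 ± 0.356 CPM in D2 (0.88 ± 0.092 on the log2 scale, adjusted p = 1.6e-06, and 0.55 after quantile normalization), and Tle4, a corepressor gene, averaged 28.4 ± 4.19 CPM in D8 and 16.6 ± 1.45 CPM in D2 (0.74 ± 0.095 on the log2 scale, adjusted p = 1.3e-05, and 0.47 after quantile normalization).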
